A study of Mus musculus with 24 samples.

Results

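Zic genes encode transcription factors with C2H2 zinc fingers, related to the Gli factors that act in Hedgehog signalling. In the mouse embryo Zic2 and Zic5 are known from the epiblast and the early neural plate, and Zic1 and Zic4 from the dorsal neural tube and the cerebellum. Embryonal carcinoma cells resemble the epiblast and lose that state when they differentiate with retinoic acid. The 4 Zic genes named among the probe sets were followed here in P19 cells, a mouse embryonal carcinoma line. Every probe set annotated to Zic1, Zic2, Zic4 or Zic5 and to no other gene was taken: 6 probe sets of 21789 with 1 gene symbol, for 4 genes of 19938. Zic1 and Zic2 had 1 probe set each, and Zic4 and Zic5 had 2 each.

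P19 cells in monolayer were profiled on 24 Affymetrix Mouse Gene 1.0 ST arrays. Pairs of agents were used, ATRA (all-trans retinoic acid) and BMS753, selective for RARα, at 1 µM each, and BMS961, selective for RARγ, and BMS641, selective for RARβ, at 0.1 µM each. Each agent had 1 array at 2, 6, 24, 48 and 72 h, and the ethanol control (EtOH) had 4 arrays that carry no time. RAR stands for retinoic acid receptor, and ATRA is the natural ligand of the 3 receptors. Agents were compared with each other only at the same dose, as ATRA with BMS753 and as BMS961 with BMS641. The labels do not say whether arrays come from separate cultures, so p-values measure the spread between these arrays. Since RNA came from whole cultures, fewer cells with a transcript and less of it per cell cannot be told apart. In EtOH, Pou5f1, Sox2, Utf1 and Tdgf1, markers of the embryonal carcinoma state, were brighter than at least 96.1% of the probe sets, and Nanog was brighter than 70.2%.

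The genes lie as neighbouring pairs in the reference annotation (RefSeq, GRCm38.p6). Zic1 (chr9:91358058-91365768) overlaps Zic4 (chr9:91365631-91389351) by 138 bases. Zic5 (chr14:122459160-122465658) and Zic2 (chr14:122475384-122480328) are 9725 bases apart. RefSeq promoter windows, from 250 bases before to 50 bases after the start, were at hand for 3 of the 4 genes and are shown because the paired genes are compared below. The Zic4 window belongs to a start inside the annotated interval of Zic4, not to its lower end. They are written along the transcript, with matches to the searched motifs in capitals on either strand: AGGTCA, the core that retinoid receptors bind, CCAAT (the CCAAT box) and GGGCGG (the GC box).
Zic1, chr9:91365719-91366018, minus strand: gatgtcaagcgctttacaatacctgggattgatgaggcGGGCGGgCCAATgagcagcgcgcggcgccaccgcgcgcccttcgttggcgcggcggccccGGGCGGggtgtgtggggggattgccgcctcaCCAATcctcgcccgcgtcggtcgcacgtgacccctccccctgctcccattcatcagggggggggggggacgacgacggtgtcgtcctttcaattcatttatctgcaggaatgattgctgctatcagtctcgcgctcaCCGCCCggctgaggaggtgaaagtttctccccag
Zic4, chr9:91368722-91369021, plus strand: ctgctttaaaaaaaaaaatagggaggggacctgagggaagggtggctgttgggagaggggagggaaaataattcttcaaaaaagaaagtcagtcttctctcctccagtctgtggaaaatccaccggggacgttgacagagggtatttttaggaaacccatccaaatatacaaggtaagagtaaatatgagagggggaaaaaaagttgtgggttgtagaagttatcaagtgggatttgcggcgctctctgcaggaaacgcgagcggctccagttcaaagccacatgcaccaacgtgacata
Zic5, chr14:122465609-122465908, minus strand: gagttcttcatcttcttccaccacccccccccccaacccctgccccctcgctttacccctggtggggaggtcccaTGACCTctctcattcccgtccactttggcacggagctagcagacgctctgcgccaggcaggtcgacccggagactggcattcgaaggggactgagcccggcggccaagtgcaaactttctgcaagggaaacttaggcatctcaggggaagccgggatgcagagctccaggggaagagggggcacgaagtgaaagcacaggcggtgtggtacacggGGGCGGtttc
The Zic1 window held 2 CCAAT boxes and 3 GC boxes and was 65.3% G and C. The Zic5 window held 1 GC box and 1 AGGTCA, read on the opposite strand, and was 62.7% G and C. None of the 3 motifs was in the Zic4 window, which was 46% G and C, against a median of 52.7% over 32851 promoters of the same length. AGGTCA was in 16.3% of those promoters, CCAAT in 37.4% and GGGCGG in 35.7%. Neither spaced pair of AGGTCA that retinoid receptors are known to bind, AGGTCANNAGGTCA or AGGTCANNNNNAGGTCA, was in the 3 windows, and each was in 0.00913% of all promoters. These motifs do not overlap in the 3 windows, and a match or its absence is a description of the letters alone.

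Zic2 fell late in the ATRA course. Its log2 level was 9.75, 10.02, 10.09, 8.18 and 7.02 at 2, 6, 24, 48 and 72 h of ATRA, against 10.02, 9.96, 9.88 and 9.87 on the EtOH arrays (9.93 ± 0.07, SD, n = 4). The ATRA arrays up to 24 h lay within 0.19 of the EtOH mean, and the 48 h and 72 h arrays were far below every EtOH array. In a limma fit in which the 24, 48 and 72 h arrays of an agent formed a late phase, Zic2 was 1.50 log2 units lower with ATRA than in EtOH (−1.50 ± 0.36 SE, 95% interval −2.27 to −0.73, adjusted p = 0.00452, n = 3 and 4). That call rested on the 72 h array, without which the value was −0.80 with an adjusted p = 0.0512. By single times, with the spread taken from EtOH for arrays that have no repeat, Zic2 was 3.37-fold lower at 48 h (adjusted p = 1.52e-10) and 7.52-fold lower at 72 h (adjusted p = 6.50e-13, limma). These p-values of single times say only that an array lies outside the spread of the 4 EtOH arrays, and no agent has a second array at any time.

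Zic2 under BMS753 kept to the same late times with smaller changes. Its log2 level was 9.68, 10.03, 10.39, 9.28 and 8.56 at 2, 6, 24, 48 and 72 h of BMS753. The 24 h array was 0.45 above the EtOH mean and the highest of all 24 arrays, and the 48 h and 72 h arrays were below every EtOH array. At 72 h Zic2 was 2.59-fold lower (adjusted p = 2.21e-09, limma), past the 2-fold threshold set for single times. With the 24 h array in it, the late phase gave −0.53 ± 0.36 (SE) on the log2 scale and was not called (95% interval −1.30 to 0.24, adjusted p = 0.409, limma). Without the 24 h arrays it gave −1.01 (adjusted p = 6.18e-04, limma). Over the 9 fits that left out an EtOH array or a time it ran from −1.01 to −0.10 (highest adjusted p = 0.907, limma).

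Zic5, the chromosome 14 neighbour of Zic2, had a time course close to that of Zic2 in its brighter probe set, 10376241. In log2 units this probe set read 10.12, 10.57, 10.06, 8.38 and 7.08 at 2, 6, 24, 48 and 72 h of ATRA, against 10.28, 10.16, 10.13 and 10.19 in EtOH (10.19 ± 0.06, SD, n = 4). The 6 h ATRA array was 0.39 above the EtOH mean (adjusted p = 0.00168, under the 2-fold threshold), and the 48 h and 72 h arrays were the lowest of the 24. Late with ATRA the change was −1.68 ± 0.34 (SE, adjusted p = 0.00153, limma). That change stayed called in all 9 fits that left out an EtOH array or a time (−2.45 to −0.97). Those without 2 h or 6 h cannot move its value. By single times it was 3.49-fold lower at 48 h and 8.60-fold lower at 72 h (adjusted p = 7.42e-11 and 2.56e-13, limma).

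Under BMS753 the same probe set read 10.13, 10.37, 10.49, 9.15 and 8.66 at 2, 6, 24, 48 and 72 h. As for Zic2, the 24 h array was higher than all EtOH arrays and the last 2 were lower than all of them. The fold decrease was 2.06 at 48 h and 2.88 at 72 h (adjusted p = 4.67e-08 and 4.79e-10, limma). The late phase as a whole, at −0.75 ± 0.34 (SE), was not called (95% interval −1.49 to −0.02, adjusted p = 0.179, limma). Without the 24 h arrays it was −1.28 (adjusted p = 1.22e-04, limma). Its value ran from −1.28 to −0.37 over the 9 fits that left out an EtOH array or a time (highest adjusted p = 0.505, limma).

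The other Zic5 probe set, 10422504, changed in the same direction by much less. It read 8.28, 8.45, 8.23, 7.90 and 7.30 at 2, 6, 24, 48 and 72 h of ATRA and 8.16, 8.36, 8.24, 7.98 and 7.41 with BMS753, against 8.20, 8.21, 8.18 and 8.11 in EtOH. For both agents the 48 h and 72 h arrays lay below all EtOH arrays. At 72 h it stood at −0.88 with ATRA and −0.77 with BMS753 relative to EtOH, both under 2-fold, where probe set 10376241 stood at −3.10 and −1.52. Its late changes were not called (−0.36, adjusted p = 0.0642, with ATRA and −0.30, adjusted p = 0.214, with BMS753, limma). Without the 24 h arrays both were called (−0.57, adjusted p = 0.00404, and −0.48, adjusted p = 0.0198, limma). In the 9 fits that left out an EtOH array or a time, the ATRA change ran from −0.57 to −0.11 (highest adjusted p = 0.261, limma). The BMS753 change ran from −0.48 to −0.06 (highest adjusted p = 0.671, limma).

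The probe sets of Zic5 also differed in where their numbers fall. For Zic1 and Zic2, 16 of 17 and 13 of 13 of the probe sets nearest in number, among those with a known chromosome, were on the gene's own chromosome. Of the 20 probe sets nearest in number to 10422504, 19 had a gene of known chromosome and 14 of those were on chromosome 14, where Zic5 lies. Around 10376241, 18 of 19 were on chromosome 11 and 0 on chromosome 14. What these neighbours have to do with the size of the change was not tested, and no probe sequences were used here.

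**Figure D1:**
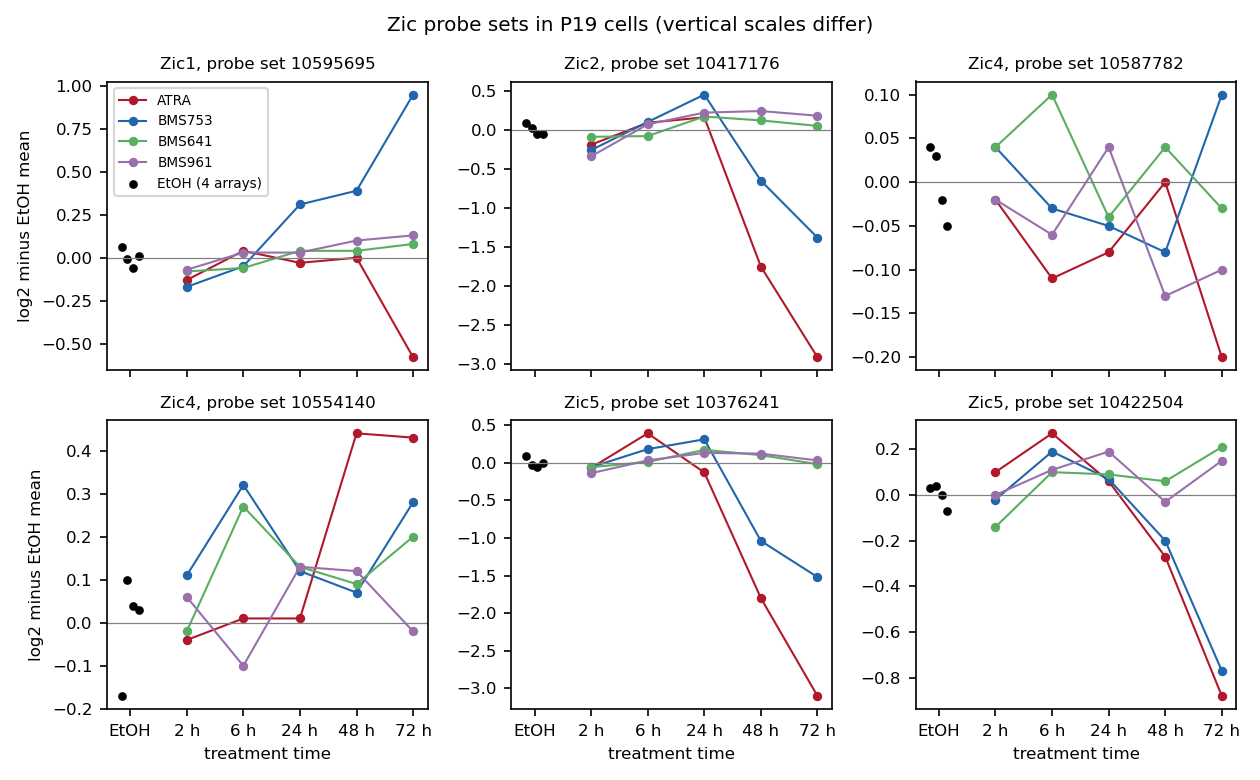
Time course of the 6 Zic probe sets, as log2 intensity minus the mean of the 4 EtOH arrays (vertical axis, scales differ by panel) against treatment time (horizontal axis, evenly spaced categories); each coloured point is 1 array and the black points are the 4 EtOH arrays. Zic2 and Zic5 drop after 24 h with ATRA and BMS753, to −2.91 and −3.10 (10376241) at 72 h of ATRA, while Zic1 stands at 0.95 with BMS753 and −0.58 with ATRA at 72 h.

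Zic1, which lies beside Zic4 on chromosome 9, differed between the 1 µM agents. Its log2 level was 9.47, 9.64, 9.58, 9.61 and 9.02 at 2, 6, 24, 48 and 72 h of ATRA, and 9.44, 9.56, 9.92, 10.00 and 10.55 with BMS753, against 9.67, 9.59, 9.55 and 9.61 in EtOH (9.60 ± 0.05, SD, n = 4). All 3 late BMS753 arrays were above all EtOH arrays, whereas with ATRA the 24 h and 48 h arrays lay among the EtOH arrays and the 72 h array was below them. Zic1 rose late with BMS753 by 0.55 ± 0.14 log2 units (SE, 95% interval 0.25 to 0.85, adjusted p = 0.0170, limma). This rise was no longer called without the 2 h arrays or without the 6 h arrays (adjusted p = 0.0519 in each, limma). Leaving those arrays out cannot move the value itself, only its error and p-value. With ATRA the late value was −0.20 ± 0.14 (SE, 95% interval −0.50 to 0.09, adjusted p = 0.279).

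ATRA and BMS753 at the same dose thus gave different Zic1 levels. The ATRA minus BMS753 difference was −0.34 at 24 h, −0.39 at 48 h and −1.53 at 72 h. Over the late phase it was −0.75 ± 0.15 (SE, 95% interval −1.07 to −0.44, adjusted p = 0.00904, limma). This difference remained called in all 9 fits that left out an EtOH array or a time (−0.96 to −0.37). Only the fits without 24, 48 or 72 h can move its value, and the others change its error and p-value alone. At 72 h Zic1 was 1.50-fold lower than EtOH with ATRA (adjusted p = 3.20e-06) and 1.93-fold higher with BMS753 (adjusted p = 4.50e-08, limma), both under the 2-fold threshold. In the first 6 h the agents were within 0.09 log2 units of each other at each time.

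For Zic2 and for Zic5 the difference between ATRA and BMS753 pointed the same way, ATRA lower, and was not called. The Zic2 difference was −0.29, −1.10 and −1.54 at 24, 48 and 72 h, and −0.98 over the late phase (95% interval −1.80 to −0.15, adjusted p = 0.110). That of Zic5 was −0.44, −0.76 and −1.58 in probe set 10376241, and −0.93 late (95% interval −1.71 to −0.14, adjusted p = 0.111). All 3 late matched differences were negative in both genes. Without the 24 h arrays both late differences were called (Zic2 −1.32, adjusted p = 5.47e-04, and Zic5 −1.17, adjusted p = 0.00148, limma). Of the 9 fits that left out an EtOH array or a time, only that one called them. Across those fits the Zic2 difference ran from −1.32 to −0.70 (highest adjusted p = 0.306, limma). That of Zic5 10376241 ran from −1.17 to −0.60 (highest adjusted p = 0.252, limma). In probe set 10422504 of Zic5 the late difference was −0.06 (95% interval −0.40 to 0.27, adjusted p = 0.812).

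Zic4 was dim, and the files used here give no detection call: its probe sets 10587782 and 10554140 averaged 5.87 and 5.31 over all arrays, brighter than 32.4% and 23.7% of the probe sets. Probe set 10587782 read 5.87, 5.78, 5.81, 5.89 and 5.69 at 2, 6, 24, 48 and 72 h of ATRA, and 5.94, 5.86, 5.84, 5.81 and 6.00 with BMS753, against 5.93, 5.92, 5.87 and 5.85 in EtOH. It stayed between −0.20 and 0.10 of the EtOH mean on all 20 agent arrays and was called in no comparison as deposited; with added quantile normalization it was called late with ATRA (−0.18, adjusted p = 0.0299). Of its numbered neighbours, 13 of 14 with a known chromosome were on chromosome 9, that of Zic4.

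Zic4 probe set 10554140 read 5.17, 5.22, 5.21, 5.65 and 5.63 at 2, 6, 24, 48 and 72 h of ATRA and 5.32, 5.53, 5.32, 5.28 and 5.49 with BMS753, against 5.04, 5.31, 5.25 and 5.23 in EtOH (5.21 ± 0.12, SD, n = 4). Late with ATRA it was 0.29 ± 0.10 higher (SE, adjusted p = 0.0313, limma), and that call was lost without EtOH array 1 (0.24, adjusted p = 0.0942), without EtOH array 4 (0.30, adjusted p = 0.0503), when 48 h was left out (0.22, adjusted p = 0.173), when 72 h was left out (0.23, adjusted p = 0.156), and with added quantile normalization (0.22, adjusted p = 0.0773). Its numbered neighbours were on chromosome 7 in 19 of 20 cases and on chromosome 9 in 0. The other Zic4 probe set, at −0.09 late with ATRA, was not called (95% interval −0.23 to 0.04, adjusted p = 0.264, limma), and the difference between the probe sets was not tested.

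**Figure D2:**
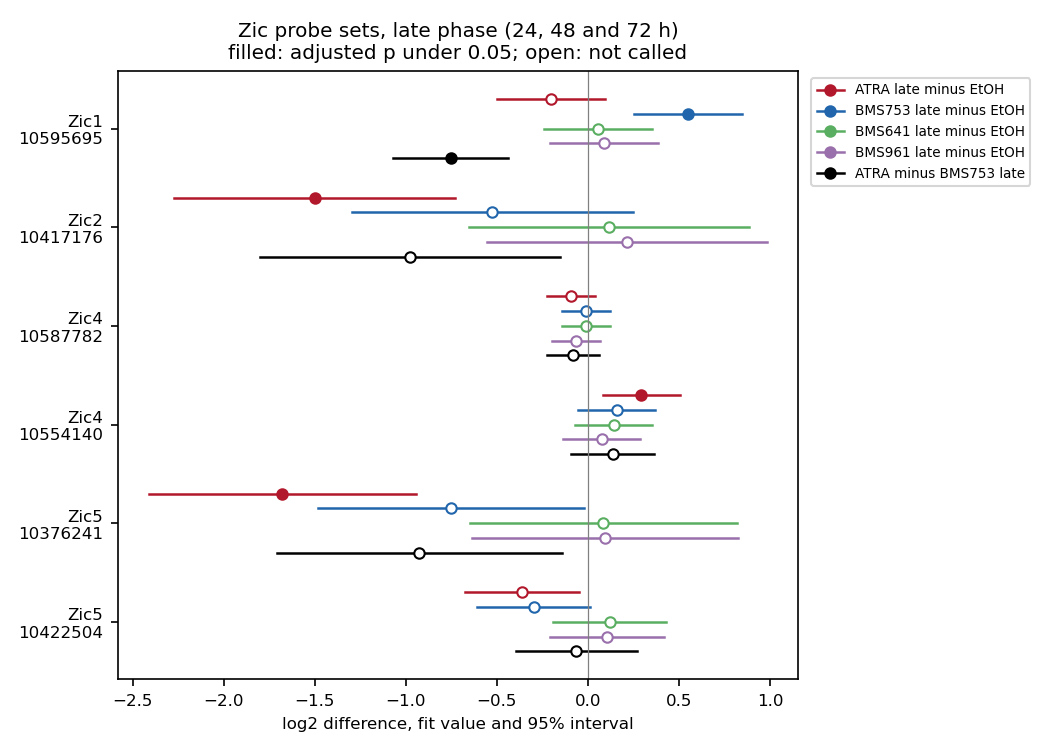
Late-phase differences of the 6 Zic probe sets on the log2 scale (horizontal axis), from the limma fit with 95% intervals: each agent minus EtOH (n = 3 and 4 arrays), and ATRA minus BMS753 in black (n = 3 and 3). Filled points have an adjusted p under 0.05: Zic2, Zic5 (10376241) and Zic4 (10554140) with ATRA, and Zic1 with BMS753 and in ATRA minus BMS753.

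The 0.1 µM agonists left the Zic probe sets close to EtOH. Zic2 read 9.84, 9.85, 10.11, 10.05 and 9.99 at 2, 6, 24, 48 and 72 h of BMS641, and 9.59, 10.01, 10.15, 10.17 and 10.12 with BMS961. Its late values were slightly above EtOH, by 0.12 with BMS641 (95% interval −0.65 to 0.88) and by 0.21 with BMS961 (−0.56 to 0.98). For Zic1 they were 0.05 (−0.24 to 0.35) with BMS641 and 0.09 (−0.21 to 0.38) with BMS961, and for Zic5 probe set 10376241 they were 0.08 (−0.65 to 0.82) and 0.09 (−0.64 to 0.83). BMS961 minus BMS641 late ran from −0.07 to 0.10 over the 6 probe sets, with the widest intervals in Zic2 (−0.73 to 0.92) and in Zic5 10376241 (−0.77 to 0.79). Since these agonists were used at a lower dose than ATRA and BMS753, agent and dose cannot be told apart between the pairs.

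Counted over the 6 probe sets, limma called 2 lower and 1 higher with ATRA late, where 36.7% of all 21789 probe sets were called in either direction (18.9% lower and 17.8% higher). With BMS753 late it called 1 higher and 0 lower, beside 13.1% of all (6.48% higher and 6.62% lower). With BMS641 and BMS961 late it called 0 of 6, as at an unadjusted p under 0.05, beside 0% and 0.00459% of all. ATRA minus BMS753 late had 1 of 6 lower, beside 5.66% lower, 4.09% higher and 9.75% in either direction, with 3 of 6 at an unadjusted p under 0.05. BMS961 minus BMS641 had 0 of 6 late and early, beside 0%, and 0 at an unadjusted p under 0.05. The count with ATRA is near what its background share gives for 6 probe sets, and nothing is read from it about the family.

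In the early phase, the 2 and 6 h arrays, limma called 0 of 6 probe sets for every agent and for ATRA minus BMS753, also at an unadjusted p under 0.05. Of all probe sets, 0.922% were called early with ATRA (0.89% higher and 0.0321% lower), 0.399% with BMS753, and 0% with BMS641, with BMS961 and in ATRA minus BMS753. Late against early within ATRA, 3 of 6 were lower, beside 16.5% of all lower, 14.6% higher and 31.1% in either direction: Zic5 10376241 (−1.84 ± 0.41 SE, adjusted p = 0.00421), Zic2 (−1.45 ± 0.43, adjusted p = 0.0197) and Zic5 10422504 (−0.55 ± 0.17, adjusted p = 0.0271). Without the 6 h arrays 0 of the 3 calls remained, at −1.61 for Zic5 10376241, −1.31 for Zic2 and −0.46 for Zic5 10422504. Zic5 10376241 alone was called when the 2 h or the 48 h arrays were left out, where Zic2 was at −1.59 and −1.32 and Zic5 10422504 at −0.63 and −0.60. When the 72 h arrays were left out, Zic2 was at −0.75 and not called (adjusted p = 0.116). Without the time terms the values were as before, and neither Zic2 (adjusted p = 0.0629) nor Zic5 10422504 (adjusted p = 0.0635) was called. Within BMS753, Zic1 was higher late than early (0.66 ± 0.17 SE, adjusted p = 0.0224), beside 3.32% higher, 7.1% lower and 10.4% in either direction, a call lost without the 2 h arrays (0.60, adjusted p = 0.238) or the 6 h arrays (0.72, adjusted p = 0.167).

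By single times at 2-fold, 2 of 6 probe sets were lower at 48 h of ATRA, beside 3% of all lower and 6.3% in either direction. At 72 h of ATRA 2 of 6 were lower, beside 4.3% lower and 9.79% in either direction. With BMS753 1 of 6 was lower at 48 h, beside 1.32% lower and 3.06% in either direction. At 72 h of BMS753 2 of 6 were lower, beside 2.79% lower and 5.78% in either direction. No Zic probe set passed at 2, 6 or 24 h of any agent or at any time of BMS641 or BMS961. At most 3 of 6 had an unadjusted p under 0.05 at any of those times. Without the 2-fold threshold, limma gave an adjusted p under 0.05 for 3 of 6 at 24 h of BMS753 and 1 of 6 at 6 h of ATRA. Of all probe sets, 0.174%, 0.688% and 2.04% passed at 2, 6 and 24 h of ATRA, and 0.0597%, 0.239% and 0.496% at those times of BMS753. At most 0.0367% passed at any time of BMS641 and at most 0.0413% at any time of BMS961.

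Ordered over the 20 agent arrays, Zic2 ran from ATRA 72 h (−2.91) through ATRA 48 h (−1.75), BMS753 72 h (−1.38) and BMS753 48 h (−0.65) to BMS961 2 h (−0.34), and ended with BMS753 24 h (0.45) as the highest. The 4 lowest were each separated from the next by more than the 0.15 log2 range of the EtOH arrays, while most neighbours in the middle of the order were closer than that range. Zic1 ran from ATRA 72 h (−0.58) to BMS753 24 h (0.31), 48 h (0.39) and 72 h (0.95), and all other arrays lay between −0.17 and 0.13. The 24 h and 48 h BMS753 arrays differed by less than the EtOH range of 0.12.

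Zic2 and Zic5 10376241 followed each other closely. Over the 20 agent arrays the Pearson r of their changes was 0.98 (Spearman 0.84), 0.93 without the 2 arrays farthest from the median of Zic2, and no array separated them by more than 0.39 log2 units. The arrays share their EtOH mean, and 4 of them, the 48 h and 72 h arrays of ATRA and BMS753, hold most of the range. For Zic2 and Zic5 10422504 r was 0.89 (Spearman 0.57), with up to 2.03 log2 units between them. Zic1 had an r of 0.16 with Zic2 and of 0.36 with its neighbour Zic4 10587782, the second of which was −0.51 without the 2 farthest arrays.

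**Figure D3:**
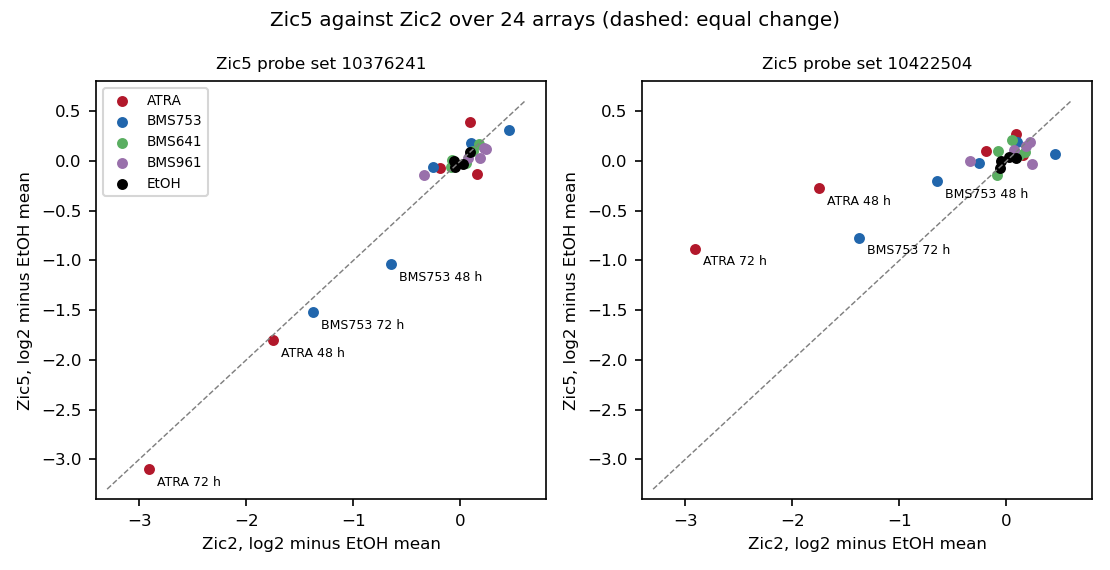
Change of Zic5 (vertical axis, 1 panel per probe set) against change of Zic2 (horizontal axis), both as log2 minus the EtOH mean, for 24 arrays; the dashed line marks equal change. With probe set 10376241 the points keep near the line down to −2.91 and −3.10 at 72 h of ATRA, and with 10422504 they leave it, at −0.88.

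The genes whose changes were most like those of a Zic gene over the 20 agent arrays were sought among 3302 genes that spanned at least 1 log2 unit, with no test. Closest to Zic2 was Zic5 in its brighter probe set 10376241 (r = 0.98), while Zic5 10422504 had an r of 0.89. Next came Atp6v1c1, a subunit of the vacuolar proton pump (0.98), and Pipox, an oxidase of pipecolic acid and sarcosine (0.98). Gtf2e2, a subunit of the general transcription factor TFIIE (0.97), and Clybl, a mitochondrial lyase (0.97), followed. Pipox stood at −0.37 at 48 h and −2.13 at 72 h of BMS753, and at −2.0 and −4.05 at those times of ATRA. The most opposite were Serf1 (−0.99), Aif1l, an actin-binding protein (−0.99), and Rbms2, an RNA-binding protein (−0.99). Zic5 10376241 shared Zic2 and was also close to Enpp3, an ectonucleotidase, Hagh, a glyoxalase, Terf1, which binds telomere repeats, and Mkrn1-ps1 (0.98 each). Opposite to Zic5 were Pcdhb11, a protocadherin, Dbn1, the actin-binding drebrin, and Etv6, an ETS repressor (−0.99 each).

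The genes most like Zic1 reached lower correlations than those most like Zic2 or Zic5. The nearest was Aqp11, an aquaporin (r = 0.93), followed by Cntnap2, a neurexin-like adhesion protein (0.86), Lmo2, a LIM-only cofactor (0.86), Car4, a carbonic anhydrase (0.85), and Cntn3, a contactin (0.81). Aqp11 had 0.06, 0.12 and −0.62 at 24, 48 and 72 h of ATRA, and 0.19, 0.50 and 0.96 with BMS753, the same split as Zic1. Serinc2 (−0.97), Shisa3 (−0.90) and Iglon5 (−0.89) were the most opposite, with Shisa3 at 1.98 at 72 h of ATRA and −1.65 at 72 h of BMS753. Zic4, with a span of 0.30, was under the minimum for such a search.

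**Figure D4:**
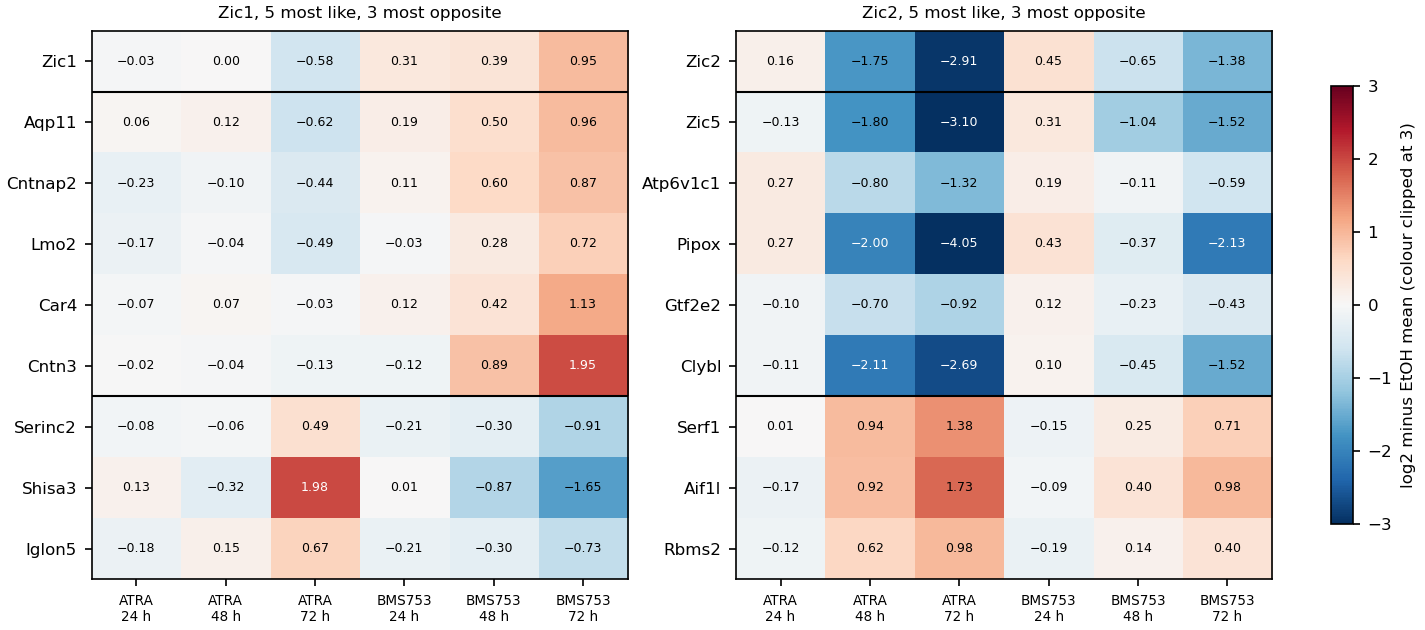
Genes with the highest and lowest correlation to Zic1 (left) and Zic2 (right): rows are genes, columns the late arrays of ATRA and BMS753, and each cell gives the log2 value minus the EtOH mean (colour clipped at 3). The row of Zic1 and that of Aqp11 are negative at 72 h of ATRA (−0.58 and −0.62) and positive at 72 h of BMS753 (0.95 and 0.96).

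The genomic neighbours of the Zic2 and Zic5 pair were mixed, in a window of 500000 bases to each side that was chosen after values were seen. Of 10 other measured genes in it, 3 were called with ATRA late, 2 lower and 1 higher, which is near the 36.7% of all probe sets, and 0 with BMS753 late. Clybl (chr14:122170994-122402234) was at −0.11, −2.11 and −2.69 at 24, 48 and 72 h of ATRA and at 0.10, −0.45 and −1.52 with BMS753 (late ATRA −1.64 ± 0.33 SE, adjusted p = 0.00146). It had also come out among the genes most like Zic2. Pcca, a subunit of propionyl-CoA carboxylase whose annotation begins 4037 bases from Zic2, fell less with ATRA (−0.56 ± 0.09, adjusted p = 2.46e-04, limma). Tmtc4 rose with ATRA (0.97 ± 0.26, adjusted p = 0.00895, limma). Gm5089, whose annotation ends 8014 bases from Zic5, was at 0.07 at 72 h of ATRA and 0.01 at 72 h of BMS753. No other measured gene lay within 500000 bases of Zic1 and Zic4.

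**Figure D5:**
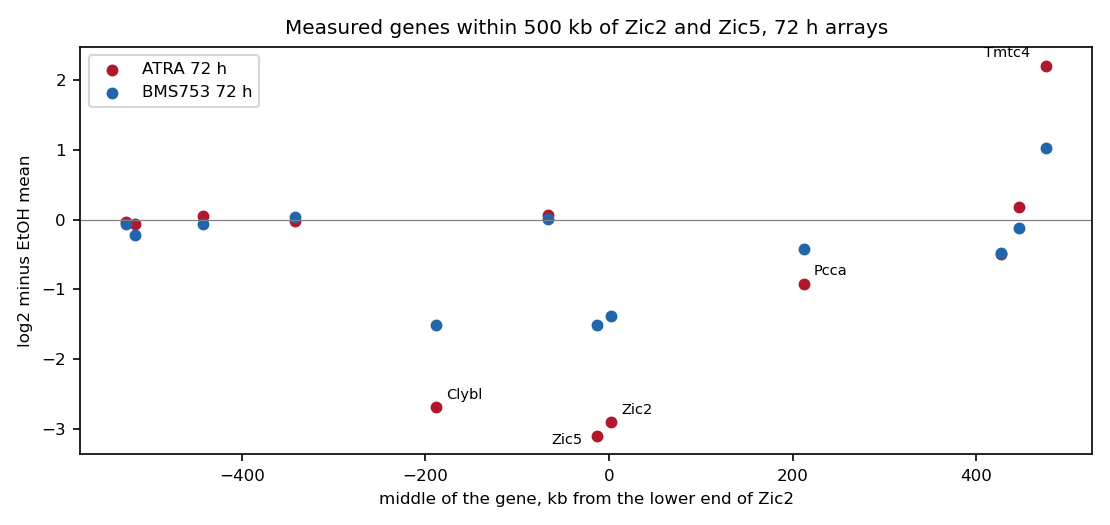
Measured genes around Zic2 and Zic5: log2 minus the EtOH mean on the 72 h arrays of ATRA (red) and BMS753 (blue) against the distance of the middle of each gene from Zic2 in kb. Clybl, Zic5 (probe set 10376241, whose numbered neighbours are mostly on chromosome 11) and Zic2 lie lowest with both agents (ATRA −2.69, −3.10 and −2.91). Zic5 probe set 10422504, not drawn, stands at −0.88 with ATRA. Gm5089, whose middle lies between those of Clybl and Zic5, is near 0 (0.07 with ATRA).

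With ATRA late, Zic2 and Zic5 probe set 10376241 were called lower, and Zic5 probe set 10422504 was not (−0.36, adjusted p = 0.0642, limma). Other genes of the Gli family and the Hedgehog pathway did not share these falls. Of 19 measured, 11 rose and 0 fell with ATRA late, and 8 rose and 0 fell with BMS753 late, with median changes of 0.41 and 0.36 on the log2 scale against 0.02 and 0.00 over all probe sets. Of all probe sets, 17.8% were called higher and 18.9% lower with ATRA late, and 6.48% higher and 6.62% lower with BMS753 late, which are the shares to set beside this and the following counts. Gas1, a Hedgehog co-receptor, rose by 2.61 ± 0.37 (SE, adjusted p = 9.92e-05) with ATRA and by 1.61 ± 0.37 (adjusted p = 0.00971) with BMS753. Glis2, a Gli-like zinc finger factor, rose by 1.52 ± 0.09 (adjusted p = 1.10e-07) and by 1.39 ± 0.09 (adjusted p = 8.67e-07, limma).

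Of 24 measured genes of the dorsal neural tube and neural plate border, where Zic1 is known to act, 8 rose and 2 fell with ATRA late, and 5 rose and 1 fell with BMS753 late. Wnt1, a signal of the dorsal midline, rose by 2.06 ± 0.56 with ATRA (SE, adjusted p = 0.00966) and by 3.10 ± 0.56 with BMS753 (adjusted p = 0.00233). Pax3, a border and dorsal factor, rose by 1.84 ± 0.48 (adjusted p = 0.00738) and by 2.56 ± 0.48 (adjusted p = 0.00292). Foxd3, known from the neural crest and from pluripotent cells, fell by 2.19 ± 0.27 (adjusted p = 3.81e-05) and by 1.44 ± 0.27 (adjusted p = 0.00308). ATRA minus BMS753 late was called for 1 of the 24, Rspo1, a Wnt agonist (−0.38 ± 0.10 SE, adjusted p = 0.0253, limma), beside 9.75% of all probe sets called in either direction. Of 24 genes of the anterior neural plate and neural progenitors, 7 rose and 3 fell with ATRA, and 5 rose and 3 fell with BMS753. Pax6, a neural progenitor factor, rose by 4.01 ± 0.36 with ATRA (adjusted p = 2.90e-06) and by 2.25 ± 0.36 with BMS753 (adjusted p = 9.15e-04). Nr2f1, an orphan nuclear receptor, rose with ATRA by 3.60 ± 0.71 (adjusted p = 0.00120), and Irx3, a homeobox factor, with BMS753 by 2.01 ± 0.42 (adjusted p = 0.00623). En2, a midbrain and hindbrain factor, fell with ATRA by 0.61 ± 0.09 (adjusted p = 1.91e-04) and with BMS753 by 0.49 ± 0.09 (adjusted p = 0.00329, limma).

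Of 21 measured epiblast and pluripotency genes, 12 fell, 1 rose (Klf4) and 8 were not called with ATRA late, while 6 fell, 0 rose and 15 were not called with BMS753 late, with medians of −0.80 and −0.12. Their mean level ran from 7.68 to 9.22 over the late ATRA arrays and from 8.30 to 9.75 over the late BMS753 arrays, against 9.64 to 9.67 in EtOH. All late ATRA arrays were thus below EtOH, and the late BMS753 arrays reached above it. Pou5f1, which encodes Oct4, stood at −0.49, −4.28 and −7.45 at 24, 48 and 72 h of ATRA and at −0.11, −1.47 and −4.02 with BMS753. Nanog, a pluripotency factor, stood at −0.19, −3.41 and −2.85 at those times of ATRA and at 1.25, 0.09 and −1.63 with BMS753. Sox2, a factor of pluripotent and neural progenitor cells, stood at 0.09, 0.07 and −1.17 with ATRA and at 0.10, 0.22 and 0.22 with BMS753. The courses of the 3 genes thus differed, and Sox2 was not below EtOH on any late BMS753 array. Of 10 Nodal and mesendoderm genes, 5 fell and 2 rose with ATRA and 3 fell and 1 rose with BMS753; Foxh1, a Nodal effector, fell by 1.46 ± 0.34 with ATRA (SE, adjusted p = 0.00398, limma).

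Some markers of other cell types were higher on the late arrays. Of 10 endoderm markers, 7 rose and 0 fell with ATRA late (mean level 7.51 to 8.43, against 6.66 to 6.75 in EtOH) and 3 rose and 0 fell with BMS753 late (6.96 to 7.90). Of 10 neuron markers, 4 rose and 0 fell with ATRA (7.69 to 9.46) and 1 rose and 0 fell with BMS753 (7.73 to 7.85), against 7.74 to 7.81 in EtOH, which the BMS753 arrays overlap. Of 9 mesoderm markers, 5 rose and 2 fell with ATRA (6.67 to 8.06) and 1 rose and 0 fell with BMS753 (6.43 to 6.98), against 6.39 to 6.53 in EtOH. With BMS753 the neuron and mesoderm counts, 1 each, are near the 13.1% of all probe sets called. The part of such cells in the Zic values was not tested. As a check of the treatment, 10 of 10 retinoid-responsive genes rose with ATRA and 8 of 10 with BMS753.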

How the data were processed

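The values are log2 intensities per probe set that the authors deposited, made with Affymetrix Expression Console 1.1 per the submitters' processing notes. Background correction, summarization and normalization were not given in the sources used here. The scale was judged to be log2 from the range, 2.859 to 14.3; array medians were 6.502 to 6.677. Of 35556 probe sets, 21789 had 1 symbol, 1621 several and 12146 none in the table of probe genes.

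All 24 arrays entered 1 limma fit (limma 3.58.1, R 4.3.3; lmFit, eBayes with trend=TRUE), with 1 mean for EtOH, an early (2 and 6 h) and a late mean (24, 48 and 72 h) per agent, and common sum-to-zero time terms. The times of a phase were the repeats of an agent, and the residual (12 degrees of freedom, prior 3.05) also holds agent-specific courses. Probe sets were called at a two-sided Benjamini-Hochberg adjusted p under 0.05 over all 21789, in each of 16 comparisons. Agents were compared in 2 pairs, each late and early. Single times came from a fit of a mean per agent and time, called also at 2-fold or more; its residual has 3 degrees of freedom, all from EtOH, and a prior of 9.74. The number of arrays limits the precision.

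Members and gene lists were chosen with earlier results of these data known. All Zic probe sets were named, with at most the 2 largest rises and falls among called genes per list and comparison, and for each Zic gene spanning 1 log2 unit the 5 genes of highest and 3 of lowest correlation over the 20 agent arrays, passing over predicted transcripts. Genes other than Zic were represented by their brightest probe set. Pou5f1, Sox2, Nanog and the genes near Zic2 were named after their values were seen. Alternatives were a filter on dim probe sets, added quantile normalization, 1 probe set per gene, all probe sets, robust moderation, no time terms, the spread of EtOH alone, and leaving out each EtOH array or time.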

Additional observations from a re-analysis of the deposited data

Results flagged for a closer look

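Zic1 differed between ATRA and BMS753, both at 1 µM, in the late phase. The difference, ATRA minus BMS753, was −0.75 on the log2 scale (95% interval −1.07 to −0.44, adjusted p = 0.00904, limma), with lower values under ATRA at 24, 48 and 72 h. It is listed because the difference between the agents was itself tested and called. The largest part came from the 72 h arrays, at −0.58 with ATRA and 0.95 with BMS753 relative to EtOH, and there was 1 array for each.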

How the results depend on the processing

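Over 31 results for Zic probe sets there were 379 values under alternatives on the same side of the threshold, 25 newly called, 20 no longer called and 0 reversed. With only the EtOH arrays setting the spread, the counts of 6 probe sets called were 5 with ATRA late, 4 with BMS753 late, 1 with BMS961 late, 5 with ATRA late against early, 4 with BMS753 late against early, 1 with BMS961 late against early and 3 in ATRA minus BMS753 late; that spread also called more of all probe sets, for example 6611 against 2856 with BMS753 late and 7657 against 2125 in ATRA minus BMS753 late. Without time terms, ATRA late against early had 1. Leaving out each EtOH array or time gave 1 to 4 with ATRA late (1 if 72 h was dropped), 0 to 4 with BMS753 late (0 if 2 h or 6 h was dropped, 4 if 24 h was), 0 to 4 with ATRA late against early (0 if 6 h was dropped, 1 if 2 h or 48 h was), 0 to 4 with BMS753 late against early (0 if 2 h or 6 h was dropped, 4 if 24 h was) and 1 to 3 in ATRA minus BMS753 late (3 if 24 h was dropped). The cause was not tested. The filter on dim probe sets left out both Zic4 probe sets. With added quantile normalization, Zic4 10554140 late with ATRA was 0.22 (adjusted p = 0.0773) and Zic4 10587782 was called at −0.18 (adjusted p = 0.0299). Only the EtOH arrays carry replicate numbers, so arrays were not paired by replicate. Agents share times, and the fit held time terms common to all agents. A test paired by time for ATRA and BMS753 alone was not run. The limits are 1 array per agent and time, EtOH arrays with no time, the unknown normalization, and for Zic4 a dim signal.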
